A study of Mus musculus with 4 samples.

Results

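Naive-like CD8 T cells made up 3679 of the 39009 barcodes in 4 single-cell libraries of mouse spleen. They were selected on UMI counts (molecules told apart by their own tags) of 9 genes and on the share of mitochondrial UMIs. A member had less than 8% of its UMIs from mitochondrial genes, at least 2 UMIs of the T cell receptor chains Cd3e, Cd3d and Cd3g together, at least 2 UMIs of the CD8 coreceptor genes Cd8a and Cd8b1 together, no UMI of Cd4 or of the chemokine gene Ccl5, and at most 2 UMIs of the B cell receptor genes Cd79a and Cd79b. Barcodes that the authors had annotated as germinal center (GC) B cells were left out before this selection, and none of those barcodes met the other criteria. Because measured UMIs chose the members, the values of the gate genes and of the 5 markers that name these cells are given as a description, without a test.

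The study asked how loss of 1 copy of the histone acetyltransferase gene Crebbp, of the histone methyltransferase gene Kmt2d, or of both alters GC B cells. Each library came from 1 mouse, and all 4 mice carried 1 copy of the Cγ1-cre allele (Cg1Cre+/-). WT carried nothing else, C also carried Crebbp fl/+, K carried Kmt2d fl/+, and CK carried both floxed alleles. All mice were immunized with sheep red blood cells (SRBC) 10 days before analysis, and the spleens were enriched for B220+ cells on beads and then sorted for B220+IgD- cells. The mice had a C57BL/6J background. Their age was 8 weeks by the legend of the experiment and 8 to 12 weeks by the methods. Cγ1-cre acts in B cells that have been activated in the GC, so T cells are not the cells in which the floxed alleles were meant to recombine. With 1 mouse per genotype, no test between genotypes exists, and ratios between genotypes are given with intervals that cover counting error only.

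Naive CD8 T cells are cells that have left the thymus and have not yet met the antigen their receptor recognizes. They circulate between blood and lymphoid organs, entering lymph nodes with the help of the chemokine receptor CCR7 and leaving along sphingosine-1-phosphate. They stay out of the cell cycle, live on interleukin-7 and weak signals from self MHC, and are kept in this state by factors such as TCF-1, LEF1, KLF2 and FOXO1. Memory CD8 T cells, which can be made after antigen or by expansion without it, add CD44, the interleukin-15 receptor chain CD122 and effector genes such as granzymes and Ccl5.

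The matrices held 33270825 to 39803865 UMIs per library, and the members contributed 2145330 to 2847855 of these. Median depth of a member was 3348, 2398, 2826.5 and 1991 UMIs (WT, C, K, CK), with 1304, 1037, 1026 and 894 genes detected. Over all pairs of libraries, 143 cell barcodes occurred in 2 libraries, and no barcode was a member in both. Single cells carried 3750 of the 3775 haemoglobin UMIs of the members in C and 5257 of the 5269 in K, and values of those genes are given with that fact. Xist had 0 UMIs in the members of every library, which allows at most 1.40 CPM at 3 UMIs, while the Y-linked genes Ddx3y and Eif2s3y had 164, 183, 82 and 175 and 147, 171, 117 and 130 UMIs in WT, C, K and CK. The figure legend describes female mice, which these transcripts go against in all 4 libraries, so no statement here rests on sex.

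The promoters of the genes that name these cells are shown because the markers are the basis on which the cells are described. All 5 markers matched RefSeq entries of build GRCm38.p6, and the printed windows are the 250 bases before a start site, read 5′ to 3′ on the strand of the gene. Capitals mark matches to the letters CTTTGA or CTTTGT, the core recognised by the TCF/LEF family, on either strand. Dapl1, a gene first described in differentiating epithelium and used as a marker of naive CD8 T cells, has its window at chr2:59484403-59484652 on the plus strand. Igfbp4 encodes an insulin-like growth factor binding protein and has its window at chr11:99040994-99041243, plus strand. Lef1 encodes a partner of TCF-1 and has 4 start sites, of which the 4th is shown at chr3:131156044-131156293, plus strand. Ccr9, the chemokine receptor that guides T cells to the gut, was not among the markers and is described below for its difference from memory-like cells, and its window lies at chr9:123766961-123767210, plus strand.
Dapl1: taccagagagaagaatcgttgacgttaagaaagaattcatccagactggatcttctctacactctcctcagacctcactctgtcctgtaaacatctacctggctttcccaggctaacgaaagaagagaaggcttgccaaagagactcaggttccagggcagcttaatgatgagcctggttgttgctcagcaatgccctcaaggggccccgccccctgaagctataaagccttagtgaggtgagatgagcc
Igfbp4: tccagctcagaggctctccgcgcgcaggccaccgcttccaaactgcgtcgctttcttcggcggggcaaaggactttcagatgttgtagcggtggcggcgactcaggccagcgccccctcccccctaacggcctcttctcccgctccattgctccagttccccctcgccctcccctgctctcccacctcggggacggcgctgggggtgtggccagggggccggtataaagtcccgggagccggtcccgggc
Lef1 start 4: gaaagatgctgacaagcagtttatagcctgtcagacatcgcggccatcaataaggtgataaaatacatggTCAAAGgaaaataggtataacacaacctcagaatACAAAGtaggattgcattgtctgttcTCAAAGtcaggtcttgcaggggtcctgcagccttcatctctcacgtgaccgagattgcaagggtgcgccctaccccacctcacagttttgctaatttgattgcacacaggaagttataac
Ccr9: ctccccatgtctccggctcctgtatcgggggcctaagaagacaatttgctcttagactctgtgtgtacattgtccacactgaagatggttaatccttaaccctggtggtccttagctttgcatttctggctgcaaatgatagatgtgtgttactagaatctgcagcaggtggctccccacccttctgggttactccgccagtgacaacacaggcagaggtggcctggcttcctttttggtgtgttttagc
Only the 4th Lef1 start held the TCF/LEF letters, with 3 matches that begin 180, 146 and 120 bases before it and are the capitals above. The other 3 Lef1 windows and those of Cd8a, Dapl1, Igfbp4, Actn1 and Ccr9 held none. None of the 9 windows held TGTGGT, the letters used here for RUNX sites, or CCGGAA, those used here for ETS sites. Shorter letters such as GGAA were not searched. Among 32851 windows of the same length in RefSeq, 27.6% held the TCF/LEF letters, 14.0% the RUNX letters and 12.03% the ETS letters, so these matches are a description of the letters and of nothing bound there.

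Naive-like CD8 T cells held a similar share of each library. Of the barcodes under the mitochondrial limit the WT library had 11.4% (659 of 5800, exact Clopper-Pearson 95% interval 10.6 to 12.2) and the C library 11.6% (971 of 8387, interval 10.9 to 12.3). The K library had 10.3% (712 of 6881, interval 9.64 to 11.1) and the CK library 12.6% (1337 of 10650, interval 11.9 to 13.2). The interval of K lay below that of CK, and the other intervals overlapped, with 1 mouse each. Memory-like CD8 T cells, which met the same criteria with at least 1 Ccl5 UMI, numbered 232, 289, 254 and 455. Naive-like cells were therefore 74.0%, 77.1%, 73.7% and 74.6% of gated CD8 T cells from WT to CK, with overlapping intervals of 70.9 to 76.8, 74.6 to 79.4, 70.8 to 76.5 and 72.5 to 76.6. CD4 T cells, taken with the same T cell and B cell criteria, at least 1 Cd4 UMI and no Cd8a or Cd8b1 UMI, numbered 205, 152, 198 and 291. The share of all barcodes depends on the sort, which was made to collect B cells, and 1 to 18 members per library (28 in all) were among the barcodes that Scrublet scored highest as doublets.

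**Figure D1:**
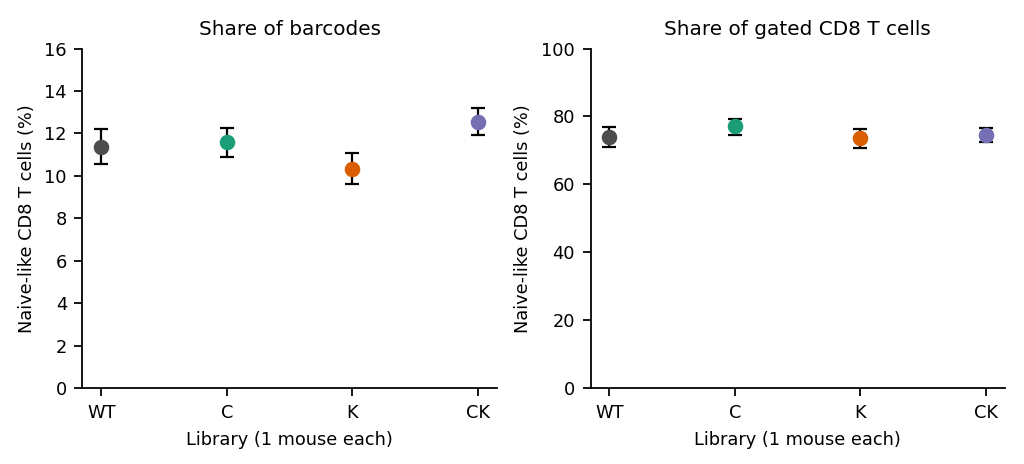
Share of naive-like CD8 T cells among barcodes with under 8% mitochondrial UMIs, and among gated CD8 T cells, in percent for the WT, C, K and CK libraries (1 mouse each). Points are the shares and bars the exact Clopper-Pearson 95% intervals, which cover counting error only. The first share runs from 10.3% in K to 12.6% in CK, and the second from 73.7% to 77.1%.

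All 5 markers were detected in every library, as the levels that follow show in CPM, the UMIs of a gene per 1000000 UMIs of the class in a library. A set of 4 values always runs from WT through C and K to CK. Dapl1 (ENSMUSG00000026989, chromosome 2) stood at 672, 602, 667 and 655 CPM, against 288 to 362 CPM in memory-like and 36.4 to 118 CPM in CD4 T cells. The 4 naive-like values lay above all values of both other classes, 1.84 to 2.09-fold over memory-like cells within a library. Igfbp4 (ENSMUSG00000017493, chromosome 11) stood at 185, 151, 199.97 and 151 CPM, and at 27.1 to 45.1 CPM in memory-like and 3.60 to 35.7 CPM in CD4 T cells. It was the marker with the widest gap from memory-like cells, 3.80 to 5.59-fold. Lef1 (ENSMUSG00000027985, chromosome 3) stood at 650.2, 731, 516 and 769 CPM, 1.49 to 2.0-fold over memory-like cells, where it held 258 to 435 CPM. The actin cross-linker gene Actn1 (ENSMUSG00000015143, chromosome 12) stood at 151, 140.2, 134 and 126 CPM and was 1.26 to 1.59-fold over memory-like cells. Cd8a (ENSMUSG00000053977, chromosome 6), which is part of the gate, stood at 648, 724, 641 and 736 CPM and was 1.11 to 1.31-fold over memory-like cells. In every library Dapl1, Igfbp4, Lef1 and Actn1 were highest in the naive-like class of the 3 T cell classes. Cd8a was as well, but CD4 T cells were chosen to have no Cd8a UMI, so its rank over them was set by the gate.

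Cells at the Ccl5 limit lay between members and the rest of the memory-like class. The 305 barcodes with exactly 1 Ccl5 UMI had Dapl1 at 578, 496, 578 and 576 CPM in WT, C, K and CK and Igfbp4 at 116, 62.6, 134 and 99.4 CPM. Their Cxcr3, a chemokine receptor gene of memory and effector T cells, was at 68.7, 80.5, 96.4 and 117 CPM, when members had 28.8, 24.2, 32.6 and 29.5 CPM. Barcodes with at least 2 Ccl5 UMIs had Igfbp4 at 16.3, 16.8, 24.1 and 21.7 CPM and Cxcr3 at 190.0, 177, 213 and 183 CPM. Absence of Ccl5 UMIs at these depths thus left the members lower in Cxcr3 and higher in Igfbp4 than cells with a single Ccl5 UMI in every library. At the other limits, 304 members had exactly 2 Cd8 UMIs and 278 barcodes failed with 1, 85 members had exactly 2 Cd3 UMIs and 32 failed with 1, and 282 members had 2 Cd79 UMIs and 50 failed with 3.

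Against memory-like CD8 T cells, the members were lower in the effector and memory program and higher in a small set of genes led by Ccr9, Ramp1 and Rgcc. Of 8126 genes tested on sums per library with the library as a block (edgeR quasi-likelihood, Benjamini-Hochberg threshold 0.05), 332 were higher in naive-like cells, 4.09% of those tested, and 510 were lower, 6.28%. The classes were split by Ccl5, so a gene that goes with Ccl5 was placed on the lower side by that choice. A gene that goes against Ccl5 was placed on the higher side in the same way. Memory-like cells were the deeper class in all 4 libraries (median 2632 to 4247 UMIs). Leaving the replicate block out gave 73 higher and 162 lower, and DESeq2 gave 71 and 218. Without TMM factors the split was 436 and 427, so that 50.5% of calls were higher rather than 39.4%.

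The 34 memory and effector genes together summed to 1722 to 1774 CPM in naive-like cells and 4029 to 4949 CPM in memory-like cells. Of these, 7 were too low to test, and the other 27 could pass the count filter through the memory-like class alone, which Ccl5 defined. That all 27 were called lower in naive-like cells is thus a description of the split. The fold changes of genes of this list against memory-like cells are given in that sense, without a p-value. Cd44, the adhesion receptor by which memory T cells are sorted, was at 7.75, 5.96, 8.86 and 5.62 CPM in naive-like cells and at 27.6 to 42.0 CPM in memory-like cells (log2 fold change -2.34 ± 0.21 (SE)). Il2rb, the chain CD122 of the interleukin-2 and interleukin-15 receptors, was at 25.6 to 33.1 CPM against 115 to 146 CPM (log2 fold change -2.14 ± 0.10 (SE)). No naive-like value of these genes reached a memory-like value.

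Cxcr3 was at 28.8, 24.2, 32.6 and 29.5 CPM in naive-like and at 157, 155, 191 and 168 CPM in memory-like cells (log2 fold change -2.57 ± 0.10 (SE)). Transcription factor genes of the program were lower too, with Eomes at 25.6 to 40.4 CPM against 74.8 to 90.6 CPM (log2 fold change -1.301) and Tbx21, encoding T-bet, with a log2 fold change of -3.52, on 19 naive-like UMIs in all. Granzyme genes, which encode proteases of cytotoxic granules, were near the detection limit in the members. Gzmm had 3.87 to 5.96 CPM against 81.9 to 142 CPM and Gzma 2.15 to 3.58 CPM against 18.1 to 201 CPM, with log2 fold changes of -4.63 and -5.43. The calcium-binding S100a6 was at 9.53 to 22.1 CPM against 263 to 431 CPM (log2 fold change -4.51 ± 0.09 (SE)), and the integrin chain gene Itgb1 at 19.6 to 41.4 CPM against 114 to 194 CPM (log2 fold change -2.29). Other genes with the lowest ratios were Ctla2a (-2.86), Ifitm10 (-2.10), the galectin gene Lgals1 (-1.77) and Ly6c2.

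Ly6c2, Nkg7 and Klrd1 were at 200 CPM or more in naive-like cells and higher still in memory-like cells. Ly6c2, a surface protein of mouse CD8 T cells, was at 213, 213, 206 and 201 CPM in naive-like and 673, 737, 864 and 682 CPM in memory-like cells (log2 fold change -1.86 ± 0.05 (SE)). Nkg7, a granule gene of cytotoxic cells, was at 629, 667, 741 and 698 CPM against 1010.4 to 1330.0 CPM (log2 fold change -0.77 ± 0.03 (SE)). Klrd1, encoding the receptor CD94, was at 246 to 284 CPM with a smaller difference of -0.34 on the log2 scale, and that call was lost without the block.

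Ccr9 had the highest log2 fold change among the called genes with a mean of at least 100 CPM in 1 class, gate genes and markers left out. It stood at 116, 129, 93.2 and 118 CPM in naive-like cells and at 30.6, 16.05, 16.4 and 18.3 CPM in memory-like cells, so that the groups were far from overlapping (log2 fold change 2.46 ± 0.13 (SE), adjusted p = 3.0e-39, higher in 4 of 4 libraries). Ramp1, which encodes a receptor subunit for the neuropeptide CGRP, was at 103, 106, 112 and 118 CPM against 17.8 to 28.7 CPM (log2 fold change 2.18 ± 0.12 (SE), adjusted p = 6.6e-36). Rgcc, a regulator of the cell cycle, was at 174, 157, 191 and 169 CPM against 30.7 to 59.2 CPM (log2 fold change 1.87 ± 0.10 (SE), adjusted p = 1.3e-39). The integrin chain gene Itgae, which pairs with Itgb7 to bind E-cadherin, was at 21.0 to 37.9 CPM against 3.07 to 12.8 CPM (log2 fold change 1.64). It could pass the count filter through the naive-like class alone, so its ratio is a description. Its call was lost when barcodes were thinned to 1000 UMIs. Other genes with high ratios among those at 100 CPM or more were Selenop (1.11), Rflnb (0.98), Tspan32 (0.94), Ssbp2 (0.92), Gm12840 (0.86) and Tsc22d3 (0.74), a glucocorticoid-induced gene.

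Genes held to mark naive and central T cells did not all move one way between the CD8 classes. Of the 21 listed genes, 4 were markers left out of the tests, and of the 17 tested 7 were higher in naive-like cells, 2 lower and 8 did not pass, with a median log2 fold change of 0.19. Over all genes tested 4.09% were higher and 6.28% lower. Ccr7, the lymph node entry receptor, was at 291, 263, 323 and 262 CPM against 157 to 196 CPM (log2 fold change 0.66 ± 0.06 (SE), adjusted p = 8.0e-18). The egress receptor gene S1pr1 and Klf2 gave no call (log2 fold changes 0.18 and 0.08). Il7r, the interleukin-7 receptor chain, was lower in naive-like cells at 448, 435, 331 and 419 CPM against 678, 598, 465 and 635 CPM (log2 fold change -0.58 ± 0.04 (SE), adjusted p = 6.4e-25). Bach2, a repressor that holds back effector genes, was higher (0.62), and so was Tcf7 by 0.19, a call that was lost with DESeq2.

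The counts for other pathways stand beside the 4.09% of all genes that were higher and the 6.28% that were lower than in memory-like cells. Cell cycle genes had 10 of 14 lower and 1 higher (median log2 fold change -0.70), while the levels in the members were low, with Mki67 at 7.75 to 21.1 CPM. Cytokine receptor and survival genes had 3 higher and 6 lower of 16, including Ifngr1, the interferon-gamma receptor chain (97.4 to 146 CPM against 206 to 304 CPM, log2 fold change -1.07), and the antiapoptotic Bcl2 (-0.47). Quiescence regulators had 4 higher, 0 lower and 8 not passed of 12, among them Btg1 (0.50) and Pik3ip1 (0.49). Interferon-stimulated genes had 2 higher, 2 lower and 11 not passed of 15, and MHC class I presentation genes 1 higher and 9 not passed of 10. Genes of the T cell receptor complex had 3 higher, 2 lower and 5 not passed of 10, and proximal signalling genes 5, 7 and 9 of 21, among them Cd28 (-0.45) and the kinase gene Zap70 (-0.37). Of the targeted genes and their relatives, 0 of 9 passed in this edgeR test, which over all genes gave 1618 at an unadjusted p under 0.05.

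Against CD4 T cells of the same libraries, naive-like CD8 T cells were higher in lymph node homing and quiescence genes. Their levels of follicular helper, regulatory and inhibitory receptor genes were lower, which is given below as a description. Of 8153 genes tested in the same way, 1425 were higher in naive-like cells, 17.5%, and 1669 were lower, 20.5%. Library-size scaling without TMM factors moved the median of all genes by -0.31 on the log2 scale and turned the split into 717 higher and 3206 lower, 18.3% against 46.1% of calls higher. DESeq2 gave 770 and 956, and without the block 983 and 1217 passed. The comparison shares the naive-like sums with the previous one, and the CD4 cells of this B220+IgD- sort were not selected for a naive state.

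The naive list was higher as a group, with 13 higher, 1 lower and 3 not passed of 17 tested and a median log2 fold change of 2.19. Over all genes tested 17.5% were higher and 20.5% lower. Ccr7 was at 262 to 323 CPM in naive-like cells and 98.1, 54.0, 52.3 and 21.6 CPM in CD4 T cells (log2 fold change 2.66 ± 0.15 (SE), adjusted p = 1.6e-17). Il7r was at 331 to 448 CPM against 58.8 to 145 CPM (log2 fold change 2.38), and neither gene overlapped between the classes. Klf2, which drives S1pr1, was at 1403, 1549, 1409.6 and 1622 CPM, with a log2 fold change of 2.19, and S1pr1 and the chromatin organizer Satb1 had 1.70 and 2.80. The exception was Tcf7, whose naive-like level of 505, 559, 372 and 518 CPM lay below the 666, 804, 570.4 and 688 CPM of CD4 T cells (log2 fold change -0.17), a call lost with DESeq2 and without the block.

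CD8 lineage genes and cytotoxic genes carried the highest ratios, which are given as a description. The classes were split by Cd8a, Cd8b1 and Cd4 UMIs, and a gene could pass the count filter through the naive-like class alone. Of the CD8 lineage list, 6 genes lay outside the gate and summed to 1191 to 1288 CPM in naive-like and 108 to 157 CPM in CD4 T cells. Klrd1 was at 246 to 284 CPM in naive-like cells and 0 to 4.91 CPM in CD4 T cells, Ly6c2 at 201 to 213 CPM against 0 to 8.41 CPM, and Ccr9 at 93.2 to 129 CPM against 0 to 9.61 CPM, with log2 fold changes of 6.75, 6.21 and 5.18 that rest on 8, 9 and 10 UMIs in CD4 T cells. Ramp1, in contrast with its difference from memory-like cells, was at 114 to 135 CPM in CD4 T cells and gave a log2 fold change of 0.15 with an adjusted p of 0.27 in edgeR. The next highest were Nkg7 (4.21), Cd7 (4.14), the cathepsin gene Ctsw (3.94), Fam46a (3.82), Plac8 (3.60), Fam241a (3.37) and Arl4c (3.24). The memory and effector list was divided here, with 7 higher, 9 lower and 2 not passed of 18 tested and a median of -0.37, while 16 more were below the count filter. Of all genes tested, 17.5% were higher and 20.5% lower.

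Helper and inhibitory genes were low in the members. The 13 genes of the CD4 helper, follicular and regulatory list summed to 92.9 to 129 CPM in naive-like and 2315 to 2840.2 CPM in CD4 T cells, and the 11 inhibitory receptor and exhaustion genes to 67.1 to 83.9 CPM and 769.7 to 998 CPM. Of these lists 12 and 6 genes passed the count filter, which they could do through the CD4 class alone, so a count of those lower in the members would be no result. The log2 fold changes of this paragraph are a description for the same reason. Pdcd1, encoding PD-1, was at 0.861, 2.38, 0 and 5.62 CPM in naive-like cells and 228, 307, 312 and 229 CPM in CD4 T cells (log2 fold change -6.42 ± 0.22 (SE)). Maf, a factor of follicular helper cells, was at 0.932 to 9.83 CPM against 342 to 438 CPM, and the inhibitory receptor gene Ctla4 at 1.29 to 3.16 CPM against 80.5 to 167 CPM. Members of the lowest set by ratio further included Nav2 (-6.41), Tox2 (-5.78), Sostdc1 (-5.52), the OX40 gene Tnfrsf4 (-5.44), Padi4 (-5.34), Tbc1d4 (-5.24) and S100a6 (-4.85). The members held 3 UMIs of Foxp3, the regulatory T cell factor, and 3 of the helper cytokine Il21 over all 4 libraries, when CD4 T cells held 59 and 116.

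The counts for further lists stand beside the 17.5% of all genes that were higher and the 20.5% that were lower than in CD4 T cells. Cell cycle genes had 13 of 14 lower and 1 higher, with a median log2 fold change of -1.80. Mki67, the proliferation antigen, was at 7.75, 16.3, 14.9 and 21.1 CPM in naive-like cells and 112, 44.1, 25.3 and 169 CPM in CD4 T cells. Quiescence regulators had 7 higher and 1 lower of 12 (median 0.83), led by Tsc22d3 (2.60) and Pik3ip1 (2.31). Egress and homing receptors had 9 higher and 3 lower of 13, including the P-selectin ligand gene Selplg (2.24). T cell receptor and accessory chains had 8 of 10 lower (median -0.42), and so were the costimulatory receptor gene Cd28 (-1.65), the inhibitor of receptor signalling Cd5 (-1.14) and Zap70 (-1.47). The adaptor gene Grap2 was higher (2.06), and signalling genes as a list had 6 higher, 8 lower and 7 not passed of 21. Interferon-stimulated genes had 9 higher and 3 lower of 14 (median 0.61), and MHC class I genes 4 higher and 6 not passed of 10.

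**Figure D2:**
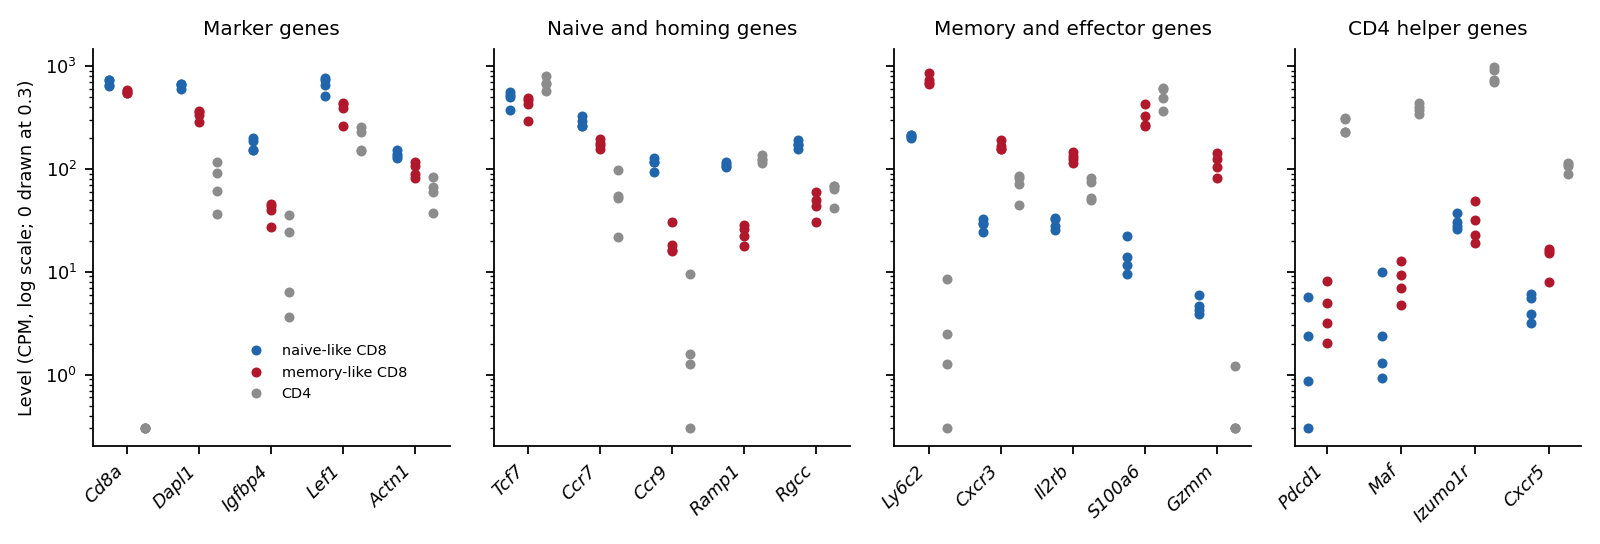
CPM of marker and described genes on a log axis in naive-like CD8, memory-like CD8 and CD4 T cells, 1 point per library, with a level of 0 drawn at the lower edge of the panel. Igfbp4 and Ccr9 separate naive-like from memory-like cells in all 4 libraries, and Pdcd1 and Maf separate them from CD4 T cells.

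**Figure D3:**
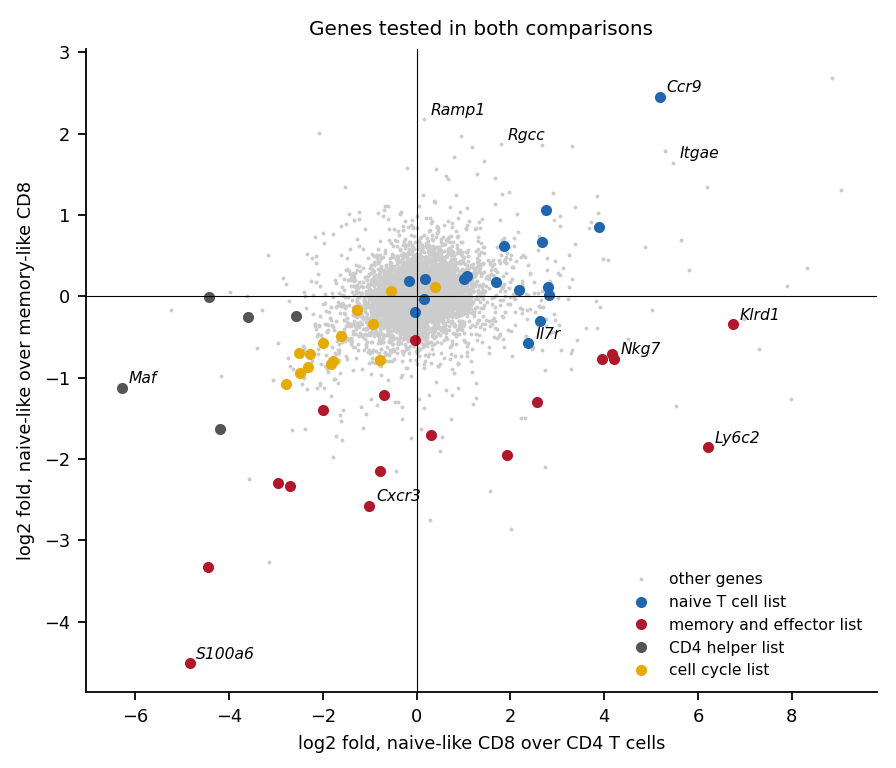
Log2 fold changes from edgeR of genes tested in both comparisons, naive-like over CD4 on one axis and naive-like over memory-like on the other, with genes of the naive, memory and effector, CD4 helper and cell cycle lists coloured. The comparisons share the naive-like sums, so the joint pattern is a display of each gene's own 2 values. Memory and effector genes lie below 0 against memory-like cells and on both sides of 0 against CD4 T cells.

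The 18 immediate early and activation genes summed to 1205 to 1442 CPM in the members, against 1180.4 to 1320.3 CPM in memory-like and 1765 to 2180.4 CPM in CD4 T cells. The 8 heat shock genes summed to 3837 to 4324 CPM, against 3999 to 4543 and 4846 to 6201 CPM. Some genes of these lists were at or near 0. Fos, a subunit of the factor AP-1, stood at 0.466 to 2.46 CPM, Fosb at 0 to 1.29 CPM and Jun at 3.01 to 5.96 CPM in the members, and Hspa1a and Hspa1b, the heat shock genes that rise with dissociation of tissue, were at 0 in all 4 libraries. Of the 18 immediate early and activation genes, 12 were tested against CD4 T cells, with 4 higher and 5 lower, when 17.5% and 20.5% of all genes were. Against memory-like cells 10 were tested, with 1 higher and 1 lower, when 4.09% and 6.28% of all genes were. The other 6 and 8 genes were below the count filter.

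Many receptor segments were counted in the members. Over the 4 libraries 434 UMIs fell on Trbv segments, and 21 of the 35 segments in the matrix had at least 1. Trbv12-2 was the most counted with 53 UMIs, 12.2% (exact interval 9.28 to 15.7), and Trbv15, Trbv2 and Trbv13-2 followed with 43, 38 and 34. Trav segments had 438 UMIs on 55 of 128 segments, with Trav3-3 first at 7.08% over the libraries. By library Trbv12-2 took 10.9%, 11.5%, 22.2% and 12.03% of Trbv UMIs, the third on 27 UMIs, and Trav3-3 took 7.53%, 10.4%, 8.22% and 2.92% of Trav UMIs. Segments that share sequence can trade reads in the authors' counting, and no clonotype was read.

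Single cells carried the markers unevenly, as shares after thinning each cell to 1000 UMIs show (658, 971, 711 and 1328 members used, with 1, 0, 1 and 9 shallower ones left out). Klf2 was detected in 67.6%, 71.6%, 71.3% and 73.4% of members in WT, C, K and CK, against 5.56 to 10.7% of annotated GC B cells, whose median depth before thinning was 3653 to 4931 UMIs. Lef1 was detected in 48.2%, 52.2%, 40.1% and 53.3% of members, and Dapl1 in 42.6%, 35.1%, 38.1% and 38.3%, when GC B cells, in which T cell transcripts should be absent, gave at most 0.902% and 0.117%. The source of those UMIs in GC B cells was not tested, and the shares of the members lay above them in every library. Without thinning the members gave 75.1 to 86.3% for Lef1 and 52.9 to 62.1% for Dapl1.

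Less abundant receptors were found in fewer cells, as a count of 1000 UMIs allows. Il7r was detected in 25.7 to 32.2% of members, Ccr7 in 23.4 to 27.7%, Igfbp4 in 12.3 to 18.4% and Actn1 in 12.3 to 15.96%, and in GC B cells each was at most 1.72%. At least 1 of Dapl1, Igfbp4, Lef1 and Actn1 was detected in 79.8%, 76.2%, 71.3% and 78.0% of members in WT, C, K and CK. The same held for 46.2 to 56.5% of memory-like cells, 19.7 to 29.3% of CD4 T cells and 0.389 to 1.48% of GC B cells. Without thinning 91.8 to 97.0% of members had at least 1 of the 4.

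**Figure D4:**
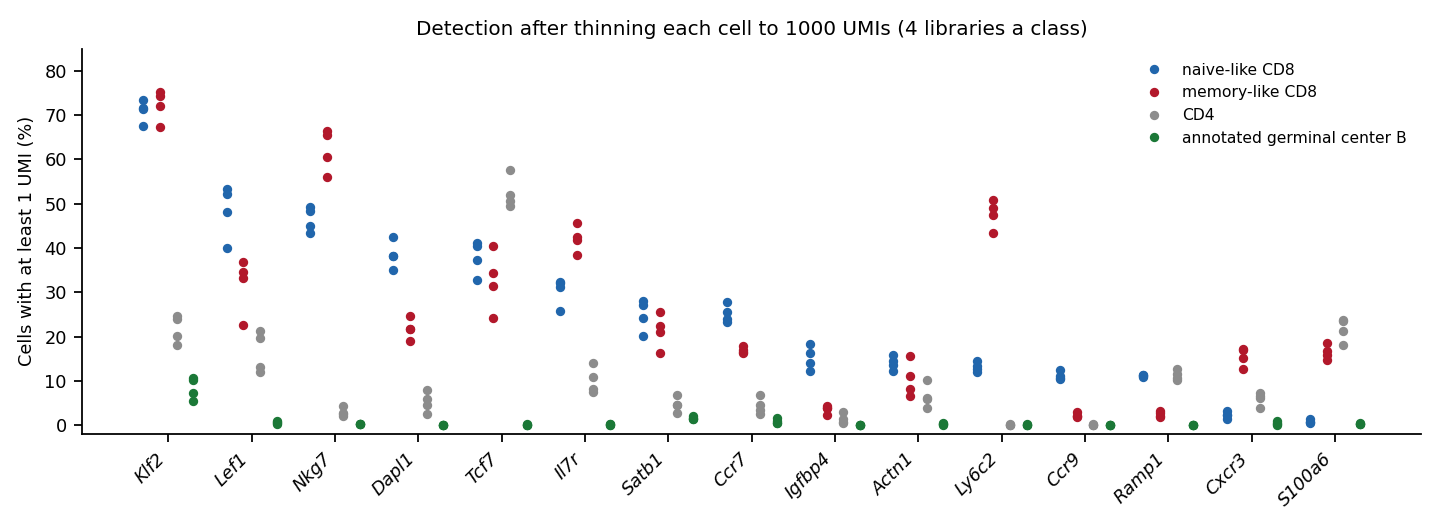
Percent of cells with at least 1 UMI of a gene after thinning to 1000 UMIs, for naive-like CD8, memory-like CD8, CD4 T cells and annotated GC B cells, 1 point per library. In naive-like cells Lef1 reaches 53.3% in CK and Dapl1 goes down to 35.1% in C, while both lie near 0 in GC B cells.

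Ccr9 and Ly6c2, neither of them part of the gate, were each found in a minority of members. Ccr9 was detected in 11.1%, 12.5%, 10.7% and 10.5% of thinned members in WT, C, K and CK, and Ly6c2 in 14.4%, 12.7%, 11.95% and 13.4%, when GC B cells gave at most 0.0983% and 0.272%. Among members with Ccr9, Ly6c2 was detected in 13.7%, 8.26%, 2.63% and 3.57%, and among members without it in 14.5%, 13.3%, 13.1% and 14.6%. The share was lower in the members with Ccr9 in 4 of 4 libraries, but the exact intervals overlapped in WT (6.77 to 23.8 against 11.8 to 17.6) and C, and did not in K or CK (1.17 to 8.14 against 12.6 to 16.7 in CK). The share of members with Ccr9 was 8.57%, 9.68%, 6.64% and 9.45% with Dapl1 against 13.0%, 14.0%, 13.2% and 11.2% without it in WT, C, K and CK. Ly6c2 and Dapl1 went the other way, with Ly6c2 in 17.1%, 13.2%, 17.3% and 16.9% of members with Dapl1 against 12.4%, 12.4%, 8.64% and 11.2% of those without, and intervals that did not overlap in K (13.0 to 22.4 against 6.18 to 11.7) or CK. These are 3 of 10 pairs that were examined, chosen after their values were seen, and no test was made on cells.

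A few members stood apart within the class. The counts of this paragraph were made without thinning, so they also depend on the depth of a cell. At least 8 UMIs over 8 cell cycle genes were found in 1, 2, 3 and 3 members of WT, C, K and CK, and these cells held 6.09%, 8.997%, 46.1% and 18.4% of all UMIs of those genes in the class. At least 10 UMIs over 9 interferon-stimulated genes were found in 7, 5, 6 and 10 members (1.06%, 0.515%, 0.843% and 0.748%), and these cells held 26.4%, 13.0%, 17.5% and 20.1% of all UMIs of those genes in the class. At least 3 UMIs over 6 memory genes were found in 3.19%, 2.06%, 2.39% and 1.65% of members, against 36.3 to 47.6% of memory-like cells. The shares of members fell in the order of median depth, from WT through K and C to CK, and memory-like cells were deeper than members. The part of depth in these shares was not tested. For the large majority of members, 2925 of 3679, no UMI of those memory genes was counted.

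Transcripts of other cell types were counted in the members, those of B cells most of all in WT, C and CK. In K the erythroid and platelet genes summed to more, 2277 against 1527 CPM. A single cell carried 5257 of the 5269 haemoglobin UMIs there. The 12 B cell genes outside the gate summed to 1527 to 2089 CPM in naive-like cells, 1342 to 1700.2 in memory-like and 1685 to 2095 in CD4 T cells, with Igkc, Cd74 and Ighm making most of it. In the members Igkc was at 535 to 739 CPM and Cd74 at 442 to 707 CPM, levels like those of Dapl1 and Lef1. Pax5, a defining factor of B cells, stood at 2.80 to 8.34 CPM. Igkc was detected in 43.0 to 51.4% of thinned members, 32.4 to 45.1% of memory-like and 44.9 to 52.7% of CD4 T cells. Natural killer genes summed to 3.73 to 40.4 CPM, gamma delta T cell genes to 5.27 to 17.5 CPM with 2 of 6 genes at 0, and immature thymocyte genes to 2.11 to 5.16 CPM with 2 of 4 genes, Rag1 and Rag2, at 0. Myeloid genes summed to 98.5 to 207 CPM, of which the protease inhibitor gene Cst3 gave 89.1 to 204 CPM. The B cell list had 5 higher and 0 lower of 10 tested against memory-like cells and 4 higher and 1 lower against CD4 T cells, and the part of these transcripts in the comparisons was not tested. Of all genes, 4.09% were higher and 6.28% lower against memory-like cells, and 17.5% and 20.5% against CD4 T cells.

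Between genotypes, no gene of the naive list differed by more than 1.5-fold from WT. The cell cycle genes summed highest in the CK library, and long transcripts were lower in the K library. The targeted genes are given before the rest. Crebbp stood at 71.0 CPM (60.6 to 82.7), 79.1 CPM (68.5 to 90.8), 42.4 CPM (34.2 to 52.1) and 63.9 CPM (55.0 to 73.9), with exact Poisson 95% intervals. Kmt2d stood at 30.1 CPM (23.5 to 38.1), 24.2 CPM (18.5 to 31.1), 16.3 CPM (11.4 to 22.7) and 28.1 CPM (22.3 to 35.0). Both intervals of K lay below those of WT, although K carries no floxed Crebbp allele, and those of C and CK overlapped the WT intervals. Counts taken at the 3′ end do not check a deletion of exons.

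Among 6850 genes that reached 50 UMIs in C and WT together, 179 were past 1.5-fold higher in C than in WT, 2.61%, and 140 lower, 2.04%. In CK 172 of 6962 were higher, 2.47%, and 173 lower, 2.48%. In K 101 of 6421 were higher, 1.57%, and 1468 lower, 22.9%. The median log2 ratio over all these genes was 0.04, -0.17 and 0.03 for C, K and CK. With median-ratio size factors the counts became 137 and 180 in C, 276 and 1007 in K, and 147 and 199 in CK, so the larger side depended on the scaling in C.

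The low values of K went with transcript length. In the shortest of 3 equal groups by length (up to 2415 bases) the median log2 ratio of K over WT was 0.07, in the middle -0.20, and in the longest (over 4134 bases) -0.52. CD4 T cells of the same libraries gave 0.08, -0.13 and -0.39. Spearman's rho between length and ratio across genes, which are not independent replicates, was -0.55 in naive-like cells of K and -0.47 in CD4 T cells, against -0.11 in C and -0.17 in CK. Relative to the ratio in CD4 T cells, 233 genes (6.13%) were past 1.5-fold higher and 266 (6.99%) lower of 3803 in K. Of the chromatin genes, which have long transcripts, 7 of 9 were past 1.5-fold lower in K over WT, when 22.9% of all genes were. Their median was -0.88 in naive-like cells and -1.06 in CD4 T cells of that library. Library K and its genotype cannot be told apart, and the low Crebbp and Kmt2d of K stand beside these values.

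None of the 21 naive and central T cell genes was past 1.5-fold in C, K or CK, with median log2 ratios of -0.06, -0.31 and -0.04. Dapl1 had log2 ratios over WT of -0.16 (-0.26 to -0.06), -0.01 (-0.11 to 0.09) and -0.04 (-0.14 to 0.06) in C, K and CK, with exact 95% intervals of the ratio. Ccr7 had -0.15 (-0.30 to 0.01), 0.15 (-0.01 to 0.30) and -0.15 (-0.31 to -0.00). Set against the ratio in CD4 T cells, 8 of 16 naive genes in CK were past 1.5-fold higher (median 0.59), when 7.49% of the 4325 genes on that scale were (median 0.06), and the CD4 T cells of CK had the lowest Ccr7 of the 4 libraries. Memory and effector genes had medians of -0.01, -0.02 and -0.04. Interferon-stimulated genes had medians of 0.21, 0.02 and 0.19, and T cell receptor genes of 0.03, 0.07 and 0.00.

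Cell cycle genes were higher in CK, with 8 of 13 past 1.5-fold higher and a median log2 ratio of 0.90 in naive-like cells. The same list had a median of 0.74 in CD4 and 0.66 in memory-like cells of the CK library, on the same side in all 3 classes. Stmn1, a microtubule regulator of dividing cells, had a ratio of 0.90 (0.62 to 1.20), and in CD4 T cells 0.85 (0.61 to 1.099). In K 5 of 11 cell cycle genes were past 1.5-fold higher, when 1.57% of all genes were. The median of the 11 was 0.50, against -0.31 in CD4 T cells. Stmn1 was at 0.77 (0.46 to 1.08) in K, or 0.48 without 4 cells that had many haemoglobin UMIs or over 10000 UMIs. In C the median was 0.08. A few cells held a large part of the cell cycle UMIs in K. Of the 347 UMIs of 8 cycle genes in the members of K, 1 member held 129. Without thinning, members with none of these UMIs were 72.1%, 76.8%, 77.0% and 69.0% in WT, C, K and CK, at unequal depths. C and K were alike in this share. An alternative chosen after seeing the data left out the members that held 8 or more UMIs of the 8 cycle genes. Under it 0 of 9 cycle genes were past 1.5-fold higher in K and 1 lower, with a median of 0.03. Of all genes 1.46% were higher and 23.2% lower there. In CK 6 of 12 were past 1.5-fold higher without those members, when 2.35% of all genes were. The median of the 12 was 0.65. That alternative left out the highest cells by UMIs of cell cycle genes, so a fall in K was built in. No conclusion is drawn from it. Without the cells of many haemoglobin, myeloid or total UMIs the medians were 0.05 in K and 0.82 in CK.

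The genes with the widest ratios were mostly not T cell genes. Gm47283, a gene on the Y chromosome, was lowest in C and CK and among the lowest in K, with log2 ratios of -1.91 (-2.21 to -1.63), -1.76 (-2.06 to -1.47) and -2.31 (-2.62 to -2.01) (456 UMIs in WT against 131, 124 and 113). Gm42418, which overlaps ribosomal RNA sequence, was at 0.92 (0.85 to 1.00), -1.87 (-2.004 to -1.73) and 1.07 (1.00 to 1.14) in the same order, with CD4 values of 0.56 (0.40 to 0.72), -1.93 (-2.19 to -1.68) and 0.78 (0.65 to 0.91). Haemoglobin genes were highest in C and K and came from 1 cell each. In C the next were Cst3 at 1.20 (0.96 to 1.44) against 0.45 (-0.03 to 0.93) in CD4 T cells, and on the low side the translation genes Eif4a2, Eif4b and Eef2 and the splicing-related Rsrp1 at -0.55 (-0.82 to -0.28), -0.55 (-0.76 to -0.33), -0.52 (-0.59 to -0.45) and -0.54 (-0.73 to -0.34). In CK the low genes included Rps27rt, Gm12840 and Ddx5 at -1.02 (-1.25 to -0.78), -0.73 (-0.99 to -0.47) and -0.52 (-0.62 to -0.41), and the high genes Cst3 and H2afv at 0.89 (0.65 to 1.14) and 0.53 (0.37 to 0.69). In K the low genes included Lnpep and Wapl at -1.71 (-2.11 to -1.32) and -1.47 (-1.79 to -1.16).

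**Figure D5:**
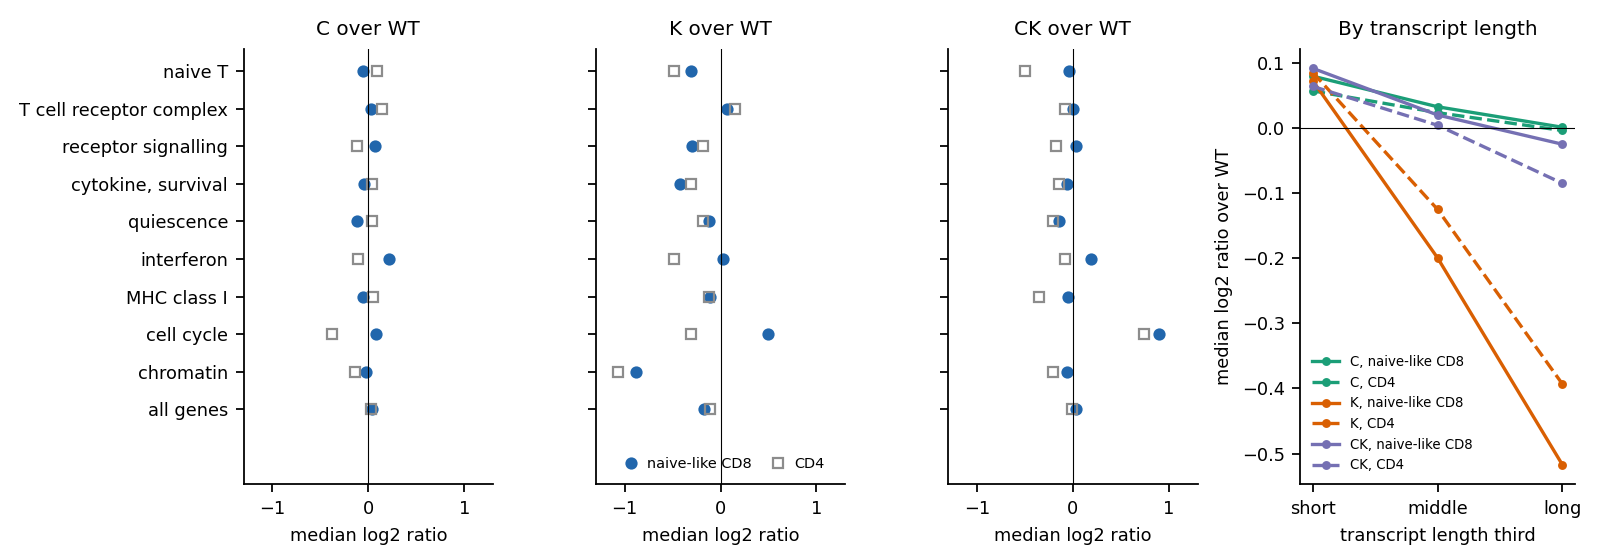
Log2 ratios of the mutant libraries over WT by gene list in naive-like CD8 T cells (median over the genes with at least 50 UMIs) and in CD4 T cells of the same libraries, in a panel each for C, K and CK, and in the last panel the median by transcript length for both classes. Cell cycle genes lie at 0.90 in CK, at 0.50 in K, where 3 members held 46.1% of the UMIs of 8 such genes, and chromatin genes at -0.88 in K, while the naive list lies between -0.31 and -0.04. A gene could reach 50 UMIs through the library where it was high, and the genes behind a list differ between panels. There is 1 mouse per genotype, so no point has a replicate.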

How the data were processed

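Spleen cells of 4 mice, 1 per genotype, were counted by the authors with Cell Ranger on a droplet platform that reads 3′ ends. The deposited matrices hold raw UMI counts of 31053 genes per barcode, with 8071 to 12852 barcodes per library. The matrix headers give Cell Ranger 3.0.2 and the submitters' processing notes give 3.0, with build mm10 and Seurat 4.0. The authors' cell table was used only for the barcodes it names as GC B cells, which were left out of the selection. Counting unfiltered for free RNA leaves background transcripts in every barcode, and depth sets how well a gate on 0 UMIs of Ccl5 or Cd4 excludes a cell.

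Members and gene lists were chosen with earlier results of these data known. Counts were summed per library and class and tested in edgeR 4.0.16 (R 4.3.3) with TMM factors, filterByExpr and the quasi-likelihood test, threshold 0.05, with the library as a block, since both classes of a pair came from the same mouse. The 4 mice are the replicates, of 4 genotypes, so a p-value measures the spread between them after the block. DESeq2 1.42.0 was an alternative. Gate genes and the 5 markers were left out of the tests. Genes were named from the lists, by the 10 highest and 10 lowest fold changes among genes past the threshold, on the same side in 4 libraries and with a mean of at least 100 CPM in 1 class, and, for genotype ratios, by the 5 highest and 5 lowest at 100 CPM and 50 UMIs, leaving out mitochondrial, immunoglobulin and gate genes. Some genes that these rules named are not reported here. A genotype ratio counts as past 1.5-fold with no test. Intervals are exact at 95% and cover counting error only. Shares of cells were taken after thinning each cell to 1000 UMIs (scanpy 1.11.5, numpy 2.4.6, scipy 1.17.1, pandas 2.3.3, Python 3.11.15). Doublets were not removed in the main selection. The automatic Scrublet threshold called no barcode in C, so the highest scores were marked in each library instead, 0.8% of barcodes per 1000 barcodes. The testing scripts were tested on simulated data. Alternatives were other scalings, filters, gates, depths and fits without the block or without 1 library.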

Additional observations from a re-analysis of the deposited data

How the results depend on the processing

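Shares moved with the gate and the denominator. The share of naive-like CD8 T cells in WT, C, K and CK was 6.67%, 7.29%, 6.32% and 8.54% when no Cd79a or Cd79b UMI was allowed, 7.03%, 7.36%, 6.94% and 8.36% when barcodes were thinned to 1000 UMIs before the gate, 8.17%, 9.73%, 8.78% and 10.4% over all barcodes, and 38.9%, 43.8%, 37.7% and 37.7% over barcodes with at least 2 Cd3 UMIs. A mitochondrial limit of 5% gave 7.99% in WT, at least 3 Cd3 and 3 Cd8 UMIs gave 10.7% in C and 10.5% in CK, and removal of Scrublet calls gave 12.5% and 13.7% there. The naive-like share of CD8 T cells was 81.5%, 82.3%, 79.1% and 81.3% with 1 Ccl5 UMI allowed and 85.9%, 86.0%, 81.3% and 81.8% after thinning. Median UMIs in CK were 2032 with the stricter gate and 1951 without Cd79 UMIs. At least 1 of 4 markers was found in 97.0%, 94.5%, 94.0% and 91.8% of members unthinned and in 86.4%, 85.6%, 83.3% and 87.1% at 1500 UMIs.

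The replicate block rests on the pairing of classes within a mouse. Against CD4 T cells 983 genes were higher and 1217 lower with no replicate block, and against memory-like cells 73 and 162. For CD4 T cells, DESeq2 gave 770 higher and 956 lower, no TMM factors 717 and 3206, thinning 730 and 794, the stricter gate 969 and 1003, and fits without 1 library 1194 to 1364 higher and 1400 to 1555 lower. For memory-like cells, DESeq2 gave 71 and 218, thinning 91 and 176, no Cd79 UMI 196 and 333, and fits without 1 library 182 to 262 and 329 to 458, the lowest without CK. Thinning and the Cd79 limit test fewer molecules, and the cause of the other shifts was not tested.

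Of 5161 values of single genes in these tests, 4624 kept their call status, 430 lost a call, 89 gained one on the same side, 5 gained one on the other side, and 13 called values changed sign. Against CD4 T cells the reversed log2 fold changes were those of Cst3 at -0.025 and Mcl1 at -0.077 without TMM, Stat5b at 0.29 in the stricter gate, Cst3 at -0.28 without Cd79 UMIs, Tuba1b at 0.010 without Scrublet calls, and Cst3 at -0.26, Hsph1 at 0.25, Mcm5 at 0.071, Hsp90ab1 at 0.11 and Ddx3y at -0.073 after thinning. Against memory-like cells they were Fcer1g between -2.17 and 0.055 in fits without 1 library, the latter without K, and Cst3 at -0.22 without Cd79 UMIs and -0.027 after thinning.

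Counts of genes past the fold over WT were 433 higher and 430 lower in C, 242 higher in K and 444 and 481 in CK with 20 UMIs as the minimum, and 19 and 8, 22 and 528, and 23 and 16 at 2-fold. In K 276 were higher with median-ratio factors, 193 without ribosomal and mitochondrial genes in the total, 233 higher and 266 lower relative to CD4 T cells, and 571 lower after thinning. In CK 324 were higher relative to CD4 T cells. Relative to CD4 T cells the K ratios of Gm42418 became 0.066, Itgb1 0.053, Itga4 0.30, Jak1 0.042, Cdkn1b 0.024, Crebbp 0.15, Kmt2c 0.15, Kmt2a 0.37 and Setd2 0.56, and the CK ratios of Rps27rt 0.68, Pclaf -0.22 and Tyms -0.086. Pclaf in K became -0.022 without Cd79 UMIs, -0.084 without Scrublet calls, -0.035 without cells of high haemoglobin, myeloid or total UMIs, and -0.12 without members of 8 or more cell cycle UMIs, the last 2 being alternatives chosen after seeing the data. The last leaves out cells by UMIs of genes that include Pclaf itself.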
